A study of Mus musculus with 10 samples.

Results

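The TGF-beta, BMP and activin pathway was followed in 2 cultured mouse tumour lines through 60 of the 54343 genes of an RNA sequencing table. The 60 members were taken by symbol: TGF-beta, BMP and GDF ligands, inhibin subunits, latent TGF-beta binding proteins, type I, type II and co-receptors of the family, SMADs, ID proteins, and secreted or membrane antagonists, among them Grem1, Fst, Fstl1, Nog and Bambi. The rule uses symbols and no threshold on a measured value. The table gives symbols and no gene identifiers or positions.

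Both lines were grown in RPMI1640 with fetal bovine serum, and each gave 5 polyA-selected, strand-specific libraries. Parental MC38 cells carry the genotype label wild type. The genotype label of MC38.T4 is low mesothelin expression. It is a single clone, isolated from MC38.huMSLN.34 cells (MC38 transfected with a human mesothelin plasmid) after about 25 days as a tumour in C57/BL6 mice and 10 generations back in culture. Transfection, cloning and passage through a mouse therefore all separate MC38.T4 from its parent, and their parts in a difference cannot be told apart. Nothing in the labels says that the 5 libraries of a line are separate cultures. The p-values then rest on the spread between libraries alone, and that spread may be technical. The labels name both melanoma and colon carcinoma as the origin, and most markers of both were at or near 0. Of 7 melanocyte genes Tyr was listed at 0 and Mlana, Tyrp1, Dct and Sox10 lay under 0.1 FPKM in both lines, while Pmel had means of 0.522 and 0.178 FPKM and Mitf rose, with means of 0.781 and 1.74 FPKM (MC38 first). Of 12 intestinal epithelial genes Cdx2 was listed at 0 and Epcam, Krt18, Krt19, Krt20, Cdx1, Vil1, Lgr5 and Muc2 lay under 0.1 FPKM in both lines. The other 3 were higher in MC38.T4 by their means: Ephb2, which passed the test, at 3.08 and 6.82 FPKM, and below the filter Cdh1 at 0.0212 and 1.00 and Krt8 at 0.0118 and 0.187 FPKM. Markers of other cells were under 0.1 FPKM in both lines for 7 of 10 myeloid, 9 of 10 lymphocyte and 6 of 8 endothelial genes, Ptprc, Cd3e and Cdh5 among them. Those above it were Cd14 (3.44 and 3.19 FPKM), Cd68 (3.10 and 2.21 FPKM, called lower), Lyz2 (0.805 and 0.237 FPKM), Lck (3.01 and 2.81 FPKM), Pecam1 (0.0404 and 0.529 FPKM) and Eng (0.405 and 0.400 FPKM).

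Ligands of this family are secreted dimers. TGF-beta leaves the cell in a latent complex, often bound to a latent TGF-beta binding protein that tethers it to the matrix, and must be released before it can act. The ligand joins type II and type I receptor kinases, and the type I receptor phosphorylates SMAD2 and SMAD3 (TGF-beta and activin) or SMAD1, SMAD5 and SMAD9 (BMP), which enter the nucleus with SMAD4. SMAD6 and SMAD7 oppose the signal, and the ID genes are among the best known targets of BMP signalling. In carcinoma the pathway is known both for growth restraint and for matrix production, mesenchymal traits and suppression of immune cells.

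Levels are FPKM, the fragments of a gene scaled to gene length and to the library total, so levels of different genes can be compared. Differences subtract the MC38 mean of log2(FPKM + 1) from the MC38.T4 mean. Adding 1 makes changes of low genes look smaller. Fold values given for single genes are ratios of mean FPKM, without the added 1. A gene was tested where it reached 1 FPKM in at least 5 of the 10 libraries, and a gene is said to have risen or fallen where the Benjamini-Hochberg adjusted p of limma, over all 11110 tested genes, was under 0.05. Of the 60 members 28 were tested, and 26 of these passed (92.9%), 14 higher and 12 lower in MC38.T4. The background was high, since 86.0% of all tested genes passed (43.1% higher and 42.9% lower). In 26 of the 28 members the 5 MC38 and the 5 MC38.T4 values did not overlap, against 77.4% of all tested genes. Changes of at least 2-fold, counted here and below on the log2(FPKM + 1) scale, were made by 7 members upward and 2 downward. Together these were 32.1% of the tested members, against 17.2% of all tested genes (10.0% upward and 7.14% downward). The median size of the log2 difference was 0.62 over the tested members and 0.47 over all tested genes, and the signed median was 0.12 against 0.00.

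Sums of FPKM lay between 442183 and 484460 over the 10 libraries of both lines. MC38 replicate 1, which has the lowest sum, was the highest MC38 library for 12 of the 28 tested members, against 31.7% of all tested genes. It was the lowest MC38 library for 4 of the 28, against 29.8% of all tested genes. MC38 replicate 5 was the highest for 11, against 18.1%. MC38.T4 replicate 4, which has the highest level of the nuclear noncoding RNA Malat1, was the lowest MC38.T4 library for 9 of the 28 members, against 30.8% of all tested genes. It was also the highest MC38.T4 library for 8 of the 28, against 22.3% of all tested genes. Without MC38 replicate 1 and MC38.T4 replicate 4, 14 members were higher and 13 lower. The added fall was that of Acvr1.

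**Figure D1:**
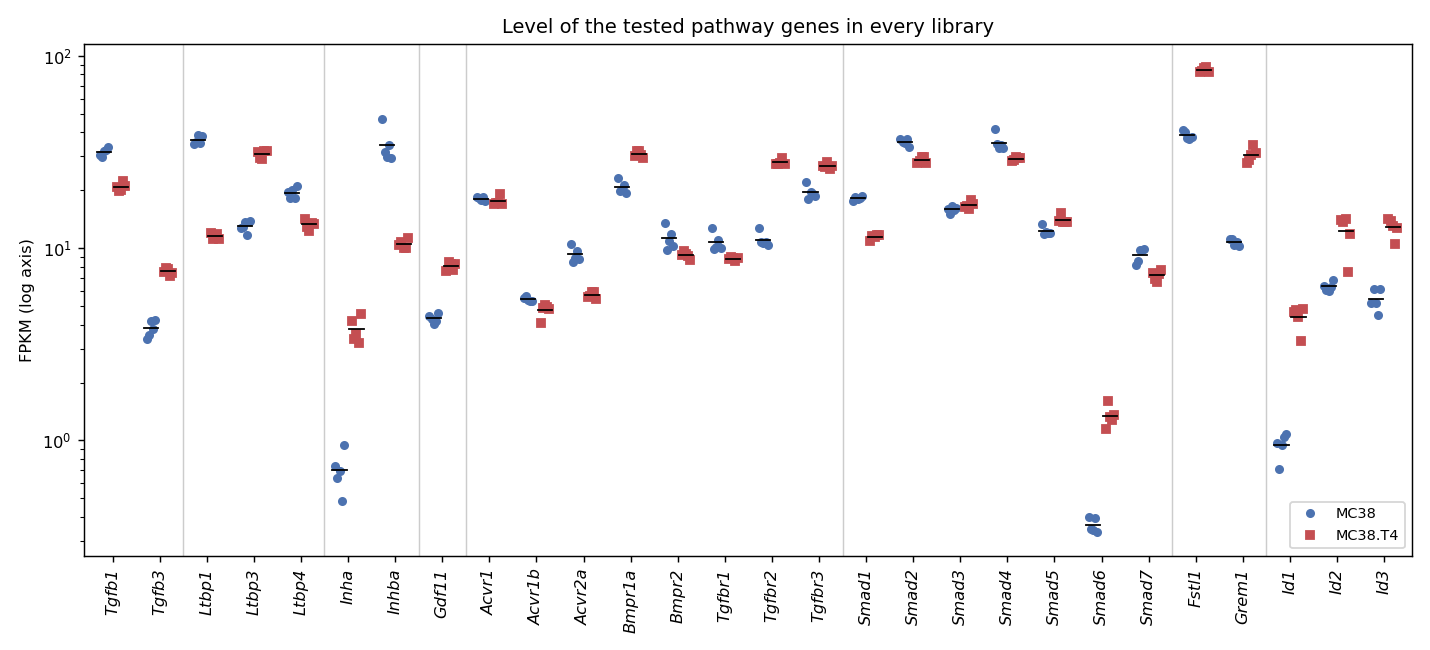
FPKM (log axis) of the 28 tested members in every library, grouped by role, with MC38 as circles, MC38.T4 as squares and black bars for the means of 5 libraries. Groups of points overlap for Smad3 and Acvr1 and are separate for the other 26 members.

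Promoter sequences came from RefSeq (mouse assembly GRCm38.p6, while the submitters' processing notes name GRCm39), matched by symbol for 22 of the 28 tested members. The following 5 are shown because they belong to members that changed and are discussed next: the ID genes Id2 and Id3, the BMP antagonist gene Grem1 and the type II receptor gene Tgfbr2, which all rose, and the activin subunit gene Inhba, which fell. Each run holds the 250 bases before the annotated start, 5′ to 3′ along the gene. Capitals mark GGCGCC, the core of BMP response elements, which equals its own reverse complement, and GTCTG with its reverse complement CAGAC, the SMAD box, searched on both strands. No capitals of the 2 motifs overlap in these runs.
Id2 (chr12:25096093-25096342, minus strand): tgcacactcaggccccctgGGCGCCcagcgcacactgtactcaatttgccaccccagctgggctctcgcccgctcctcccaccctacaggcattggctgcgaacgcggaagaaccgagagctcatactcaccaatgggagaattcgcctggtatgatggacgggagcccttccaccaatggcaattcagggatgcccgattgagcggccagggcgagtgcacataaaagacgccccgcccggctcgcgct
Id3 (chr4:136143572-136143821, plus strand): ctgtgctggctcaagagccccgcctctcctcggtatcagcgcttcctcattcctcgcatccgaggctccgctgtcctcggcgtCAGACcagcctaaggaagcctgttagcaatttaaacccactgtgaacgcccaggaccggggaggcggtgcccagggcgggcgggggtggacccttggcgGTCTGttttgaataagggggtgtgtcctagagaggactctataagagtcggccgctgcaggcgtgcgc
Grem1 (chr2:113758649-113758898, minus strand): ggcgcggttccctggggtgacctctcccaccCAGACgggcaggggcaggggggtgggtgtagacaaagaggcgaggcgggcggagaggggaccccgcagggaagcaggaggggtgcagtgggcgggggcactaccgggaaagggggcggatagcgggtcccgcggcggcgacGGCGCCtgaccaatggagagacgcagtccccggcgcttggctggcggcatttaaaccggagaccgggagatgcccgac
Tgfbr2 (chr9:116175364-116175613, minus strand): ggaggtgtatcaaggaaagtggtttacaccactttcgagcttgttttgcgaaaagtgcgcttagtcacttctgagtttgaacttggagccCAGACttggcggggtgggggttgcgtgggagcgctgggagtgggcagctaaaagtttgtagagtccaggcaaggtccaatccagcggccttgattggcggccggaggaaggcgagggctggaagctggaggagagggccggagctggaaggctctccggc
Inhba (chr13:16011601-16011850, plus strand): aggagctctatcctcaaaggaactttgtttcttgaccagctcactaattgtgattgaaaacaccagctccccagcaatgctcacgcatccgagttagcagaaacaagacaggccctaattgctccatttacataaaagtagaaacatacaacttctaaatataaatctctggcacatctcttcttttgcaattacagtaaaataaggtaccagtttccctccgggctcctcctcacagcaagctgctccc
GGCGCC occurred in promoters of 7 of the 22 matched genes (8 of their 28 windows), against 9.59% of 32851 windows in the RefSeq table. These 7 were Bmpr1a, Grem1, Id2 and Smad5, which rose, and Bmpr2, Ltbp4 and Tgfbr1, which fell. Of the 8 windows, 2 are overlapping windows of Ltbp4 that hold the same site. The shares over the RefSeq table count windows and not genes, and some genes have more than 1 window. The SMAD box occurred for 9 of the 22 genes (10 of 28 windows), against 42.2% of all windows. These were Grem1, Id3, Inha, Ltbp3, Smad5 and Tgfbr2, which rose, and Acvr2a, Ltbp1 and Tgfbr1, which fell. The 5 runs shown do not stand for all members that changed. Fstl1 rose and had neither motif, while Ltbp1 fell and had the SMAD box in both of its windows. The palindrome GTCTAGAC occurred in none of the 28 windows and in 0.167% of all windows. Windows of the tested members were rich in G and C, with a median of 66.6% against 52.4% in all windows, and the Inhba window was the lowest of them at 43.2%. Such matches describe letters and do not show that a SMAD binds there.

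The ligand genes of the TGF-beta subfamily moved in opposite directions. Tgfb1 was the main isoform in both lines. Its FPKM in MC38 replicates 1 to 5 was 30.3, 29.8, 32.2, 32.2 and 33.6. In MC38.T4 it was 20.8, 19.9, 20.1, 22.4 and 21.1. The lowest MC38 library lay above the highest MC38.T4 library, and Tgfb1 fell by 1.52-fold with a log2 difference of -0.58 (SE 0.04, adjusted p = 3.46e-09). Tgfb3 had a mean ± SD of 3.82 ± 0.39 FPKM in MC38 and 7.57 ± 0.30 FPKM in MC38.T4 (n = 5 in each, as for all pairs of means below), a rise of 1.98-fold (log2 difference 0.83, adjusted p = 1.08e-09). Tgfb2 lay below the filter, at 0.480 ± 0.045 and 0.260 ± 0.061 FPKM (exact permutation p = 0.00794, two-sided, unadjusted). The share of Tgfb1 in the summed FPKM of the 3 isoforms was 88.0% ± 0.63 in MC38 and 72.7% ± 1.7 in MC38.T4, while that of Tgfb3 was 10.6% ± 0.59 in MC38 and 26.4% ± 1.7 in MC38.T4. The sum itself was 35.9 ± 1.9 FPKM in MC38 and 28.7 ± 0.71 FPKM in MC38.T4.

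Latent TGF-beta binding proteins, which hold the latent complex and direct it to the matrix, exchanged places. Ltbp1 stood at 34.7, 35.5, 38.6, 35.1 and 38.3 FPKM in the MC38 libraries. In the MC38.T4 libraries it stood at 11.9, 11.1, 11.6, 11.8 and 11.2. No library of one line came near the range of the other, and the fall was 3.16-fold, with a log2 difference of -1.58 (SE 0.04, adjusted p = 1.76e-14). Ltbp3 stood at 12.7, 12.9, 13.7, 11.7 and 13.8 FPKM in MC38. The MC38.T4 libraries held 31.5, 29.5, 28.9, 32.1 and 31.8. All 5 MC38.T4 values were above all MC38 values, a rise of 2.37-fold with a log2 difference of 1.19 (SE 0.05, adjusted p = 3e-12). Ltbp4, whose protein binds the TGF-beta1 complex, fell from 19.5 ± 1.3 to 13.3 ± 0.71 FPKM (log2 difference -0.52, adjusted p = 6.73e-08). Ltbp2, which does not bind latent TGF-beta, was listed at 0 in every MC38 library and at 0.114 to 0.226 FPKM in MC38.T4. It lay below the filter and is named after its values were seen. The share of Ltbp1 in the summed FPKM of the 4 genes was 52.9% ± 0.89 in MC38 and 20.7% ± 0.75 in MC38.T4, and that of Ltbp3 was 18.8% ± 0.50 in MC38 and 55.2% ± 0.75 in MC38.T4.

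**Figure D2:**
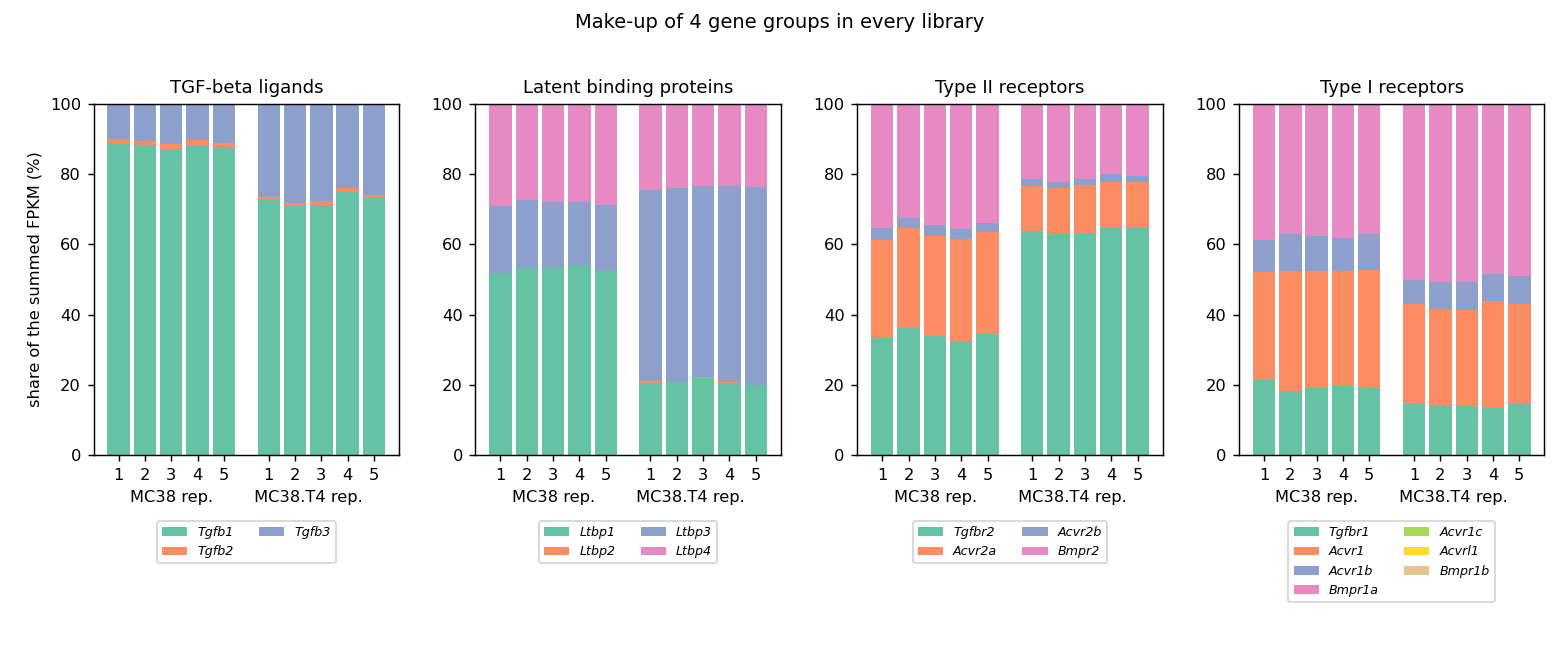
Stacked bars give each gene's share (%) of the summed FPKM of its group in every library, for the TGF-beta ligands, the latent TGF-beta binding proteins, the type II receptors and the type I receptors. Tgfb1 stays the largest part of its group in both lines, while Ltbp3 in place of Ltbp1 and Tgfbr2 in place of a near-even mixture become the largest parts in MC38.T4.

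Activin and inhibin subunits moved apart. Inhba encodes the beta-A chain whose homodimer is activin A, and Inha encodes the alpha chain that turns a beta chain into inhibin, an antagonist of activin. Inhba stood at 46.7, 31.4, 29.7, 34.5 and 29.5 FPKM in MC38 replicates 1 to 5. Its MC38.T4 values were 10.4, 10.8, 10.0, 10.0 and 11.3. MC38 replicate 1 was well above the other MC38 libraries, and every MC38 value exceeded every MC38.T4 value. The fall was 3.27-fold, with a log2 difference of -1.60 (SE 0.11, adjusted p = 7.12e-08), and without MC38 replicate 1 the log2 difference was -1.49 (SE 0.05, adjusted p = 1.07e-12). Inha stood at 0.739, 0.638, 0.691, 0.484 and 0.944 FPKM in MC38. The values in MC38.T4 were 4.16, 3.37, 3.58, 3.22 and 4.55. These ranges do not overlap, and the rise was 5.40-fold by the ratio of means. The log2 difference of Inha was 1.49 (SE 0.08, adjusted p = 2.22e-10), and 2.29 with a pseudocount of 0.1. Even so, Inhba remained the more abundant transcript, with a share in the sum of Inha, Inhba and Inhbb of 97.9% ± 0.68 in MC38 and 73.6% ± 2.4 in MC38.T4. Inhbb was listed at 0 in 9 of the 10 libraries and did not exceed 0.00690 FPKM in the remaining one.

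Of 20 BMP and GDF ligand genes, 1 was tested. Gdf11, a relative of myostatin that signals through activin receptors, stood at 4.45, 4.30, 4.04, 4.20 and 4.58 FPKM in MC38. In MC38.T4 it stood at 7.56, 8.42, 8.28, 7.68 and 8.28. The lines did not overlap, and Gdf11 rose 1.87-fold with a log2 difference of 0.77 (SE 0.04, adjusted p = 2.3e-10). Bmp4, Bmp15, Gdf3 and Gdf6 were listed at 0 in every library. Bmp5, which encodes a bone morphogenetic protein, was listed at 0 in all 5 MC38 libraries and at 0.899, 0.838, 1.02, 0.963 and 0.963 FPKM in MC38.T4. Its exons overlap those of Gm26903 on the opposite strand in GENCODE M21. Whether the authors counted by strand is not given in the sources used here, so levels of members with an antisense neighbour are uncertain. Bmp2, which lay just under the filter, stood at 1.00 ± 0.069 FPKM in MC38 and 0.565 ± 0.063 in MC38.T4. Its ranges of 0.933 to 1.12 and 0.490 to 0.635 FPKM did not overlap (exact permutation p = 0.00794, two-sided and unadjusted, the smallest that 252 assignments of libraries allow). Gdf9, Gdf15 and Bmp7 had means from 0.0849 to 0.401 FPKM, each lower in every MC38.T4 library than in any MC38 library, with the same exact permutation p. Gdf15, a stress-induced and distant member of the family, went from 0.401 ± 0.13 to 0.192 ± 0.072 FPKM. Bmp8a and Bmp8b are near copies of each other, and Gdf1 shares a transcript with Cers1, so their values, all under 0.5 FPKM, are uncertain.

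Among the receptors Tgfbr2 rose most. It encodes the type II receptor that binds TGF-beta, and its FPKM in MC38 was 12.7, 10.8, 10.7, 10.8 and 10.4. In MC38.T4 it was 27.5, 27.3, 27.7, 29.5 and 27.5. The rise was 2.52-fold with a log2 difference of 1.26 (SE 0.05, adjusted p = 1.5e-12), and the 2 lines were far apart relative to the spread within each. Tgfbr1, its type I partner, fell from 10.8 ± 1.2 to 8.82 ± 0.17 FPKM (log2 difference -0.26, adjusted p = 0.000682). Betaglycan, the co-receptor encoded by Tgfbr3, rose from 19.5 ± 1.6 to 26.7 ± 0.78 FPKM (log2 difference 0.44, adjusted p = 4.59e-07).

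Bmpr1a, a type I receptor for BMPs and the most abundant receptor over both lines, stood at 23.0, 19.9, 19.9, 21.3 and 19.4 FPKM in MC38. Its values in MC38.T4 were 30.1, 31.9, 31.9, 30.6 and 29.3. It rose 1.48-fold with no overlap, a log2 difference of 0.55 (SE 0.05, adjusted p = 1.91e-08). The type II receptors that serve activins and BMPs went the other way: Acvr2a fell from 9.30 ± 0.82 to 5.69 ± 0.23 FPKM (log2 difference -0.62, adjusted p = 2.36e-08). Bmpr2 fell from 11.2 ± 1.5 to 9.19 ± 0.34 FPKM (log2 difference -0.26, adjusted p = 0.0024). The activin type I receptor gene Acvr1b fell slightly, from 5.43 ± 0.15 to 4.76 ± 0.38 FPKM (log2 difference -0.16, adjusted p = 0.00707). Acvr1, which encodes another BMP type I receptor, did not pass, at 18.1 ± 0.31 and 17.5 ± 0.96 FPKM, a log2 difference of -0.05 with a 95% interval of -0.13 to 0.03 (adjusted p = 0.244). MC38.T4 replicate 4 was its highest library, and without it Acvr1 was called lower (log2 difference -0.08, adjusted p = 0.0261, the lowest of 19 alternatives, which reach 0.404).

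The make-up of the receptor pool shifted with these changes. Tgfbr2 made up 34.0% ± 1.4 in MC38 and 64.0% ± 0.89 in MC38.T4 of the summed FPKM of Tgfbr2, Acvr2a, Acvr2b and Bmpr2, and the sum was 32.6 ± 3.3 FPKM in MC38 and 43.6 ± 1.2 FPKM in MC38.T4. Bmpr1a made up 37.6% ± 0.70 in MC38 and 49.7% ± 1.1 in MC38.T4 of the 7 type I receptor genes and Tgfbr1 19.5% ± 1.1 in MC38 and 14.3% ± 0.53 in MC38.T4. Acvrl1, Acvr1c and Bmpr1b each had a mean under 0.05 FPKM in both lines. Acvr2b lay just below the filter, at 0.984 ± 0.18 and 0.834 ± 0.077 FPKM, with overlapping ranges (exact permutation p = 0.0794, two-sided, unadjusted).

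None of the 7 tested SMAD genes changed 2-fold on the log2(FPKM + 1) scale, against 17.2% of all tested genes. Of the 7, 2 rose, 4 fell and 1 did not pass, where 43.1% of all tested genes rose and 42.9% fell. Smad4, the shared partner, stood at 41.5, 34.7, 33.0, 34.5 and 33.1 FPKM in MC38. For MC38.T4 the values were 28.3, 28.9, 29.8, 29.4 and 29.3. MC38 replicate 1 was high, and the lines still did not overlap (log2 difference -0.27 (SE 0.05, adjusted p = 0.000254)). Without MC38 replicate 1 the log2 difference of Smad4 was -0.21 (adjusted p = 1.64e-05). Of the SMADs that carry TGF-beta and activin signals, Smad2 fell from 35.6 ± 1.4 to 28.6 ± 1.1 FPKM (log2 difference -0.30, adjusted p = 1.61e-06). Smad3 did not pass, at 15.9 ± 0.55 and 16.7 ± 0.69 FPKM, with a log2 difference of 0.07 and a 95% interval of -0.01 to 0.15 (adjusted p = 0.111). Of those that carry BMP signals, Smad1 fell from 18.2 ± 0.45 to 11.5 ± 0.37 FPKM (log2 difference -0.62, adjusted p = 1.54e-10) and Smad5 rose from 12.2 ± 0.61 to 14.0 ± 0.64 FPKM (log2 difference 0.18, adjusted p = 0.000854).

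Smad9 lay below the filter, at 0.0928 to 0.164 FPKM in MC38 and 0 to 0.0111 FPKM in MC38.T4, and is named after its values were seen. The share of Smad1 in the sum of Smad1, Smad5 and Smad9 was 59.5% ± 1.7 in MC38 and 45.0% ± 1.3 in MC38.T4. Smad2 and Smad3 together made up 62.8% ± 0.65 in MC38 and 64.0% ± 0.95 in MC38.T4 of the summed FPKM of all 5 receptor-activated SMAD genes. The inhibitory SMADs went opposite ways. Smad6, which mainly restrains BMP signals, rose from 0.363 ± 0.032 to 1.34 ± 0.17 FPKM, 3.69-fold by the ratio of means, with a log2 difference of 0.78 (adjusted p = 1.86e-09). With a pseudocount of 0.1 in place of 1 the log2 difference of Smad6 was 1.63, and after rescaling to TPM it was 1.08. Smad7, which also restrains TGF-beta receptors, fell from 9.25 ± 0.83 to 7.21 ± 0.40 FPKM (log2 difference -0.32, adjusted p = 8.74e-05).

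Of the 6 antagonist members 2 could be tested, Grem1 and Fstl1, and both rose, where 43.1% of all tested genes rose. Grem1 encodes gremlin, which binds BMPs and keeps them from their receptors. Its FPKM was 11.2, 11.2, 10.3, 10.7 and 10.2 in MC38. In MC38.T4 it was 27.7, 28.9, 30.5, 34.3 and 31.2. The lines did not overlap, and Grem1 rose 2.84-fold with a log2 difference of 1.42 (SE 0.05, adjusted p = 9.64e-13). Fstl1, a secreted glycoprotein of the follistatin family, had the highest mean of all 60 members in both lines. It stood at 41.3, 40.1, 37.6, 37.1 and 38.1 FPKM in MC38. In MC38.T4 it stood at 82.5, 83.7, 86.1, 87.3 and 82.3. Fstl1 rose 2.17-fold (log2 difference 1.10 (SE 0.04, adjusted p = 3.5e-13)). The other 4 members of this group lay below the filter. Fst, which encodes follistatin, the binder of activin, was listed at 0 in every MC38.T4 library and did not exceed 0.0497 FPKM in MC38. Noggin (Nog) stood at 0.101 to 0.254 FPKM in MC38 and 0 to 0.0979 in MC38.T4. The pseudoreceptor gene Bambi stood at 0.227 ± 0.020 and 0.282 ± 0.084 FPKM with overlapping ranges (exact permutation p = 0.222, two-sided, unadjusted).

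The 3 tested ID genes all rose, where 43.1% of all tested genes rose. ID proteins lack a DNA-binding region and hold basic helix-loop-helix factors in inactive pairs. Id1 stood at 0.969, 0.711, 0.947, 1.04 and 1.08 FPKM in MC38. In MC38.T4 it stood at 4.66, 4.78, 4.40, 3.31 and 4.81. The rise was 4.62-fold by the ratio of means, with a log2 difference of 1.46 (SE 0.08, adjusted p = 1.97e-10), and 2.10 with a pseudocount of 0.1. Id2 stood at 6.37, 6.06, 6.02, 6.29 and 6.85 FPKM in MC38. The values of Id2 in MC38.T4 were 14.0, 13.6, 14.2, 7.53 and 11.8. The value of MC38.T4 replicate 4 lay far nearer to MC38 than those of the other MC38.T4 libraries, yet above all 5 MC38 libraries. Id2 rose 1.94-fold with a log2 difference of 0.82 (SE 0.15, adjusted p = 0.000391), and without replicate 4 of MC38.T4 the log2 difference was 0.97 (SE 0.06, adjusted p = 1.06e-09). Id3 stood at 5.20, 6.11, 5.16, 4.47 and 6.12 FPKM in MC38. Its level in MC38.T4 was 14.2, 13.9, 13.1, 10.5 and 12.7 FPKM. Again replicate 4 was the lowest MC38.T4 library and the lines did not overlap, with a rise of 2.38-fold and a log2 difference of 1.11 (SE 0.08, adjusted p = 1.67e-08). Id4 had a mean under 0.05 FPKM in both lines. The summed FPKM of the 4 ID genes was 12.7 ± 0.88 FPKM in MC38 and 29.5 ± 4.7 FPKM in MC38.T4. Malat1 stood at 125 FPKM in MC38.T4 replicate 4 and at 53.1 to 75.9 FPKM in the other MC38.T4 libraries, and its relation to the lower ID values was not tested.

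**Figure D3:**
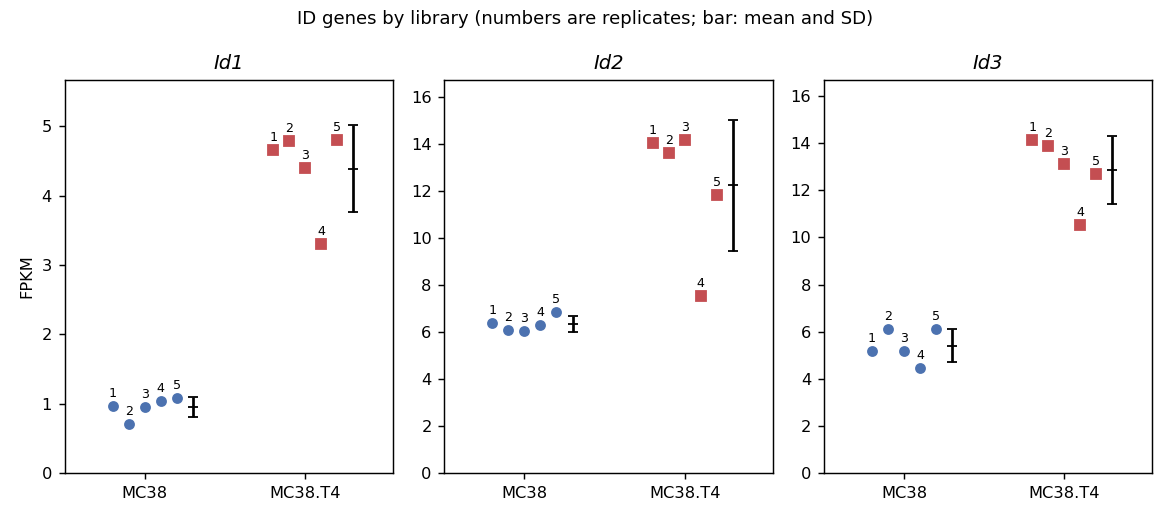
FPKM of Id1, Id2 and Id3 in every library, numbered by replicate, with the mean and SD of 5 libraries beside each line. All MC38.T4 libraries lie above all MC38 libraries, and replicate 4 is the lowest MC38.T4 library for each of the 3 genes.

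**Figure D4:**
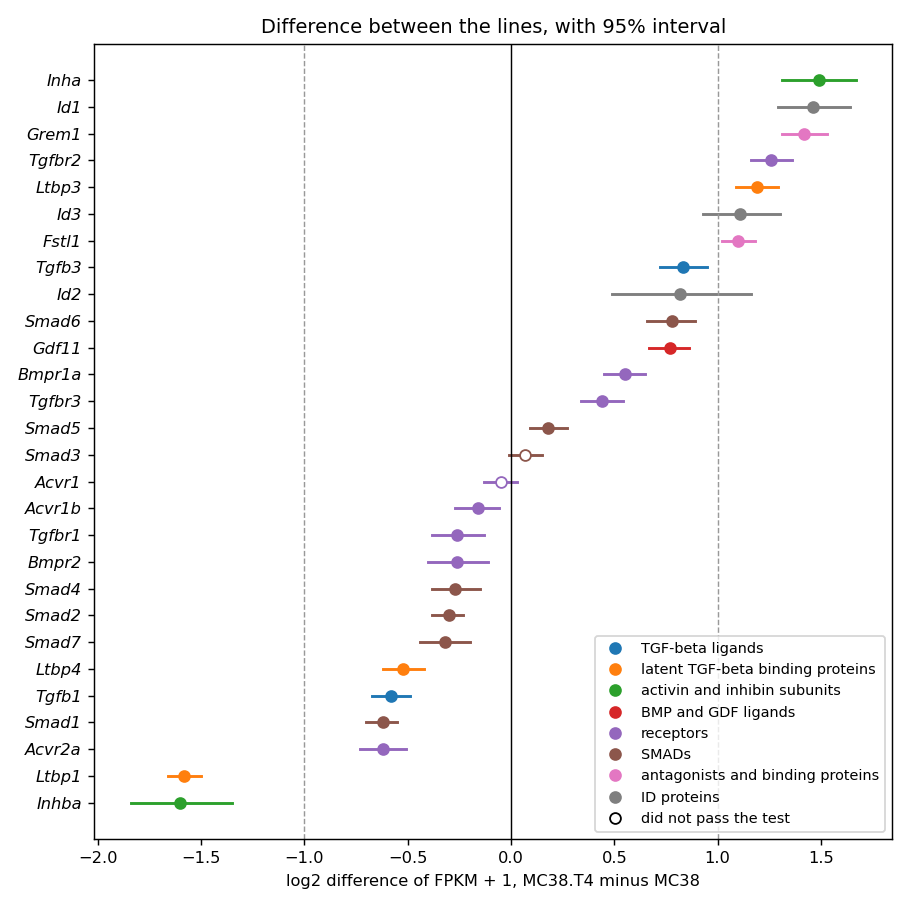
Log2 difference of FPKM + 1 (MC38.T4 minus MC38) with its 95% interval from limma for the 28 tested members, coloured by role, with open circles for the 2 that did not pass and dashed lines at 2-fold. Inha, Id1, Grem1, Tgfbr2, Ltbp3, Id3 and Fstl1 lie above 1 and Ltbp1 and Inhba below -1.

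Below the filter lay 32 members, of which 28 had a value above 0 in some library. In a fit with no filter 12 of these 28 passed, 5 higher and 7 lower, against 47.8% of the 26597 genes of that fit. The 5 were Bmp5, Bmp6, Gdf5, Ltbp2 and Acvrl1, and the 7 were Bmp2, Bmp7, Gdf9, Gdf15, Nog, Smad9 and Tgfb2. Of the 60 members, 24 had a mean under 0.2 FPKM in both lines.

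Other genes of the pathway were read from 5 lists that the rule does not take. These lists were chosen with earlier results of these data known, so their counts describe the lists only. Over these lists 93 of 153 genes were tested, 47 rose and 37 fell (90.3% passed, against 86.0% of all tested genes). Changes of at least 2-fold were 21 rises and 13 falls, against 10.0% and 7.14% of all tested genes.

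For release of latent TGF-beta and processing of ligands, 8 of 13 tested genes rose, 3 fell and 2 did not pass (43.1% and 42.9% of all tested genes rose and fell). Thbs1, whose product thrombospondin-1 can activate latent TGF-beta, rose 15.4-fold, from 3.96 ± 0.34 to 61.0 ± 3.5 FPKM (log2 difference 3.64, adjusted p = 7.5e-17). The gelatinase gene Mmp2 rose from 7.86 ± 0.36 to 28.3 ± 1.5 FPKM, and Mmp9 had a log2 difference of 4.07. Itgav, the alpha-V chain of the integrins that bind the latency peptide, fell from 54.9 ± 4.1 to 23.2 ± 0.53 FPKM (log2 difference -1.20). The tested integrin beta chain genes of this list, Itgb1, Itgb5 and Itgb8, rose, with log2 differences of 0.12, 0.32 and 0.44. Itgb3 and Itgb6 lay below the filter. These beta chain genes are named after their values were seen. The proprotein convertase gene Furin fell from 28.2 ± 0.83 to 17.6 ± 0.60 FPKM and the tolloid protease gene Bmp1 from 16.7 ± 0.43 to 12.3 ± 0.55 FPKM. Htra1, a secreted protease gene, was the most abundant gene that did not pass, at 236 ± 10.0 and 235 ± 12.6 FPKM (adjusted p = 0.934).

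Among other ligands, co-receptors and antagonists 5 of 10 tested genes rose and 5 fell, against 43.1% and 42.9% of all tested genes. The proteoglycan gene Dcn had a log2 difference of 1.73, and Vasn, whose product vasorin binds TGF-beta, rose from 9.57 ± 0.73 to 19.4 ± 0.44 FPKM. Tmeff1 fell from 27.6 ± 1.7 to 20.5 ± 1.6 FPKM, and Fstl3, an activin-binding relative of follistatin, from 10.7 ± 0.41 to 8.81 ± 0.59 FPKM. Nbl1, which encodes a secreted BMP antagonist, fell from 1.45 ± 0.27 to 0.182 ± 0.051 FPKM (log2 difference -1.04, adjusted p = 1.1e-09) and is named after its values were seen. The BMP co-receptor genes Rgmb and Rgma stood at 6.73 ± 0.091 and 7.60 ± 0.49 FPKM and at 20.3 ± 1.0 and 18.8 ± 1.2 FPKM. The call of Rgma (lower, adjusted p = 0.0353) was lost under 9 of 19 alternatives, which span adjusted p from 0.00377 to 0.104, among them those without MC38 replicate 3 (adjusted p = 0.104) or replicate 5 (0.0656) and without MC38.T4 replicate 2 (0.0879), replicate 3 (0.0961) or replicate 5 (0.061). That of Rgmb (higher, adjusted p = 0.00458) was lost with quantile normalization (adjusted p = 0.0813, where 19 alternatives span 0.000248 to 0.0813).

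Among regulators and cofactors of SMADs 18 of 36 tested genes fell, 15 rose and 3 did not pass, where 42.9% of all tested genes fell and 43.1% rose. At least 2-fold changes were 7 falls and 2 rises, against 7.14% and 10.0% of all tested genes. Skil, which encodes the SMAD corepressor SnoN, fell 3.00-fold, from 16.9 ± 2.0 to 5.62 ± 0.57 FPKM (log2 difference -1.43, adjusted p = 1.54e-10). Genes of the branch that runs through the kinase TAK1 split: the adaptor genes Tab2 and Traf6 fell from 111 ± 3.9 to 42.4 ± 1.7 and from 16.3 ± 1.1 to 5.75 ± 0.17 FPKM. Tab1 and Xiap, which encode partners of the kinase and are named after their values were seen, both rose, Tab1 from 6.88 ± 0.24 to 10.2 ± 0.42 FPKM (log2 difference 0.51) and Xiap with a log2 difference of 0.61. Map3k7, the kinase gene itself, did not pass, at 18.6 ± 1.0 and 17.8 ± 0.63 FPKM (adjusted p = 0.178). The endocytic adaptor gene Dab2 rose from 8.66 ± 0.34 to 24.2 ± 1.1 FPKM, the phosphatase gene Ctdsp1 from 24.0 ± 0.61 to 57.5 ± 1.3 FPKM and the ubiquitin ligase gene Stub1 from 39.0 ± 2.1 to 60.7 ± 2.5 FPKM.

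In the list of TGF-beta and activin target genes 14 of 23 tested genes rose, 6 fell and 3 did not pass, against rises of 43.1% and falls of 42.9% of all tested genes. Changes of at least 2-fold were 11 rises and 4 falls, against 10.0% and 7.14% of all tested genes. Its median log2 difference was 0.93, against 0.00 over all tested genes. The list leaves out genes counted above as SMADs or SMAD regulators, so its median does not cover them. Of these, Skil and Smad7 fell (log2 differences -1.43 and -0.32), and Pmepa1, named after its values were seen, rose (0.5). Because the list was chosen with earlier results of these data known, these counts and this median are no independent test of the pathway. Beside Spp1 and Col3a1 (log2 differences 5.56 and 5.06), the transcription factor gene Bhlhe40 rose 5.58-fold, from 3.45 ± 0.19 to 19.3 ± 0.64 FPKM. Plaur, the urokinase receptor gene, fell 4.31-fold, from 74.3 ± 5.1 to 17.2 ± 1.1 FPKM, Snai2 had a log2 difference of -1.14, and the Notch ligand gene Jag1 fell from 6.55 ± 0.22 to 2.75 ± 0.097 FPKM. Fibronectin (Fn1) did not pass, at 197 ± 19.6 and 219 ± 36.1 FPKM (adjusted p = 0.241). All these genes also answer to other signals. Markers of fibroblasts and pericytes were higher in MC38.T4 for 6 of the 7 that could be tested, of 12, against 43.1% of all tested genes. Acta2 and Col1a1 stand both among these markers and in the list of targets, and Dcn in that of other ligands and antagonists. The sum of all 12 lay between 122 and 132 FPKM in the MC38 libraries and between 206 and 233 in the MC38.T4 libraries. Pdpn, the tested marker that did not pass, was a large part of it, with means of 64.5 and 61.3 FPKM. The largest rises among the tested markers were those of Pdgfrb, from 0.191 to 19.2 FPKM, and Acta2, from 0.0445 to 2.77 FPKM. Thy1 was listed at 0, and Lum and Fap lay under 0.1 FPKM in both lines. The part of these markers in the counts of targets was not tested.

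In the list of BMP target genes 5 of 11 tested genes rose, 5 fell and 1 did not pass. Over all tested genes 43.1% rose and 42.9% fell. Changes of at least 2-fold were 3 rises and no fall, against 10.0% and 7.14% of all tested genes. The homeobox gene Prrx2 went from 0.378 ± 0.15 to 8.02 ± 1.0 FPKM (21.2-fold), the repressor gene Hes1 from 2.05 ± 0.38 to 6.84 ± 0.51 FPKM and Stat3 from 15.6 ± 0.85 to 33.6 ± 0.69 FPKM. Hhex fell from 6.06 ± 0.44 to 3.84 ± 0.29 FPKM and Msx1 from 5.12 ± 0.53 to 4.28 ± 0.38 FPKM. The genes of this list also answer to signals other than BMP, and the source of their changes was not tested. Runx2 did not pass, at 4.84 ± 0.46 and 4.49 ± 0.15 FPKM (adjusted p = 0.142). Without MC38 replicate 2 it was called lower (adjusted p = 0.0457), as with quantile normalization (0.00237, where 18 alternatives span 0.00237 to 0.387).

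**Figure D5:**
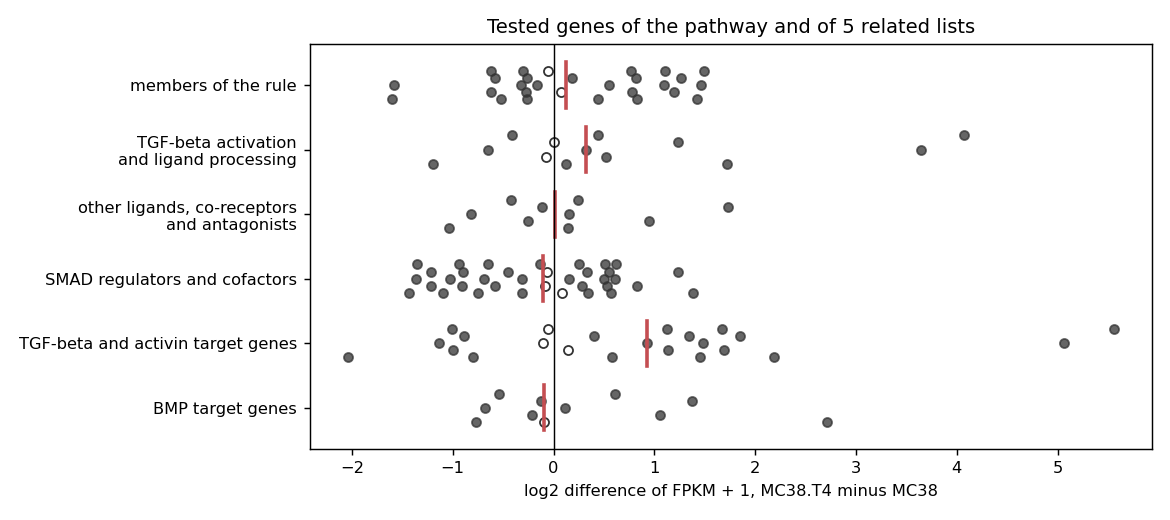
Log2 difference of FPKM + 1 (MC38.T4 minus MC38) of each tested gene, with the 28 members of the rule in the top row and 5 related lists below, filled where the gene passed and open where it did not, with a vertical bar at each median. The list of TGF-beta and activin targets has a median of 0.93 and the other rows have medians from -0.10 to 0.32. The lists were chosen with earlier results of these data known.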

How the data were processed

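The data were 1 table of FPKM deposited by the authors, with 1 column per library and a symbol per row. Per the labels' protocols, RNA was made into libraries with a TruSeq stranded mRNA kit. The submitters' processing notes name GRCm39 and DESeq2 with no role. The aligner, the way fragments were counted, the annotation and any filter: not given in the sources used here. Library names in the labels tied all 10 columns to samples. Read totals are unknown, so no counting interval is given. Depths relative to MC38 replicate 1, from the spacing of low values, were 0.875 to 1.14.

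limma 3.58.1 in R 4.3.3 was fitted to log2(FPKM + 1) of 11110 genes with at least 1 FPKM in at least 5 libraries, with a group term, trend and robust moderation, two-sided, with Benjamini-Hochberg adjustment. The exact permutation test used all 252 assignments of 5 libraries. The code was tested on simulated data. Python 3.11.15 with pandas 2.3.3 and matplotlib 3.10.9 made tables and figures. Members and lists were chosen with earlier results of these data known. Named are members with a mean of at least 1 FPKM, with all values for those changed 2-fold and the most abundant of each role. Members from 0.2 FPKM are named with an exact test. Of each other list at most 3 rises and 3 falls with at least 5 FPKM are named, and the most abundant gene not passed. Some genes that these rules name are not reported here. Results were repeated with a pseudocount of 0.1, without a filter, with a minimum of 5 FPKM, after rescaling to TPM, after quantile normalization, with plain eBayes, with a block for the replicate number, without each library in turn or 2 libraries together, and by an exact rank-sum test.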

Additional observations from a re-analysis of the deposited data

Results flagged for a closer look

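Single libraries lay apart from the other 4 of their line for 11 of the 66 genes examined, in 13 cases. About 1 in 20 of the 132 groups examined is flagged by chance. MC38 replicate 1 was the highest of its line for Smad4 (41.5 FPKM, the other 4 from 33.0 to 34.7), Smad5 (13.3 FPKM, the other 4 from 11.8 to 12.1), Tgfbr2 (12.7 FPKM, the other 4 from 10.4 to 10.8), Xiap (8.41 FPKM, the other 4 from 6.23 to 6.80), Itgav (62.1 FPKM, the other 4 from 51.5 to 54.1) and Tab2 (117 FPKM, the other 4 from 107 to 110.0), and the lowest for Spp1 (9.73 FPKM, the other 4 from 12.7 to 13.6). MC38.T4 replicate 4 was the highest of its line for Acvr1 (19.2 FPKM, the other 4 from 16.9 to 17.2), Tgfbr2 (29.5 FPKM, the other 4 from 27.3 to 27.7) and Mmp2 (30.9 FPKM, the other 4 from 27.2 to 27.9), and the lowest for Id1 (3.31 FPKM, the other 4 from 4.40 to 4.81). Acvr1b was lowest in MC38.T4 replicate 1 (4.09 FPKM, the other 4 from 4.83 to 5.06) and Smad5 highest in MC38.T4 replicate 2 (15.1 FPKM, the other 4 from 13.6 to 13.9).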

How the results depend on the processing

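Counts of members that rose or fell kept within 1.5 times of 14 and 12 under 19 alternatives, except that 19 members fell with no filter, where 12 members below 1 FPKM came in. Leaving out 1 library at a time gave 14 rises and 12 to 13 falls among members, 7 and 2 changes of at least 2-fold, 47 to 48 rises and 35 to 39 falls among the other pathway genes, and 9408 to 9624 genes called in all. Of the 28 tested members 27 kept direction and call under all alternatives run for them, the exception being Acvr1. Of 37 other genes, 34 picked by the naming rule and 3 after their values were seen, 34 did, the exceptions being Rgma, Rgmb and Runx2. Pmepa1 and the integrin beta chain genes were not followed in this way. With the replicate number as a block 14 members rose and 12 fell and 9534 genes were called. Deviations of same-numbered libraries correlated at -0.13 to 0.14 over 5 pairs, over 0.1 in 2 of them. Of 5 MC38 libraries, 2 correlated best with the MC38.T4 library of their own number. So few weak correlations cannot decide whether libraries of the same number share a batch or preparation. Rescaling to TPM lowered the median difference of all genes by 0.05 on the log2 scale, and quantile normalization by 0.03. Without read totals, the counting error of members under 1 FPKM is unknown.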
